A study of Mus musculus with 2 samples.

Results

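Penk encodes proenkephalin, the precursor protein of the enkephalin opioid peptides. It was followed as 1 gene of the 32285 in the deposited features, picked by its symbol. It was picked because earlier results of these data pointed to it, so its levels are given as a description with no test. Before any filter, 294 of 8237 cell barcodes of the tumour library and 363 of 6553 of the normal adjacent library held at least 1 Penk UMI. A UMI is a molecular barcode that marks 1 captured transcript.

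The study set mouse prostate tumour tissue beside normal tissue adjacent to tumour, with 1 droplet 3' single-cell RNA library of each. In both arms, digested tissue was sorted into CD45+ and CD45- cells that were loaded together in 1 channel. The labels call the cells CD45+ and epithelial, and the title of the adjacent sample calls it healthy. The tumour model, genotype, strain, age, number of animals and the ratio of the 2 sorted fractions are not stated in the labels or files, so whether the tissues came from 1 animal is not known. With 1 library per tissue, a difference compares 2 libraries, and tissue and library cannot be told apart.

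Proenkephalin is cut by convertases at pairs of basic residues and trimmed by carboxypeptidases, which frees Met-enkephalin and Leu-enkephalin. These peptides act on delta and mu opioid receptors. Penk is best known from neurons and the adrenal medulla, and it has also been described in fibroblasts and mesenchymal cells and in T cells, among them regulatory T cells of mouse tissues.

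The stretches that encode the enkephalin residues are shown. In the GENCODE annotation of GRCm38, Penk lies on the minus strand at chr4:4133531-4138819, and the coding sequence of Penk-201, 1 of 2 annotated transcripts, has 268 codons, or 804 bases. All 7 enkephalin stretches, 6 for Met-enkephalin and 1 for Leu-enkephalin, lie in coding sequence of exon 2 of 2. Each line gives 27 bases of the transcript 5′ to 3′, with the 5 enkephalin codons in capitals and the neighbouring codons in lower case.
Met-enkephalin 1, chr4:4134328-4134354: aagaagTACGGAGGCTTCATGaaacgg
Met-enkephalin 2, chr4:4134307-4134333: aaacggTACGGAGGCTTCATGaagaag
Met-enkephalin 3, chr4:4134220-4134246: aagaggTATGGCGGCTTCATGaagaag
Met-enkephalin 4, chr4:4134067-4134093: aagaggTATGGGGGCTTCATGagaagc
Met-enkephalin 5, chr4:4133995-4134021: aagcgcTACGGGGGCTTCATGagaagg
Leu-enkephalin 6, chr4:4133935-4133961: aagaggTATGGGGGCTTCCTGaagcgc
Met-enkephalin 7, chr4:4133842-4133868: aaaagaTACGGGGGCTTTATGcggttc
All 7 follow a pair of basic codons, for lysine or arginine, and 5 are also followed by one. Numbers 4 and 7 are not, so the count of stretches is not a count of peptides freed at basic pairs. The 15 capital bases take 6 distinct forms, numbers 1 and 2 being identical. The libraries are read at the 3' end of transcripts, so the Penk UMIs count transcripts and say nothing of which peptide was made.

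The tumour library held 92188538 UMIs and the normal adjacent library 77855775, with a median of 6015 and 6017 per barcode. Cells with at least 200 genes and at most 20% mitochondrial UMIs were kept, 7768 of tumour and 6209 of adjacent tissue. In these, Penk had 2652 UMIs in 288 tumour cells and 1948 UMIs in 360 adjacent cells. Cells were placed in types by raw UMIs of marker genes, and cells with the markers of 2 lineages were left out of every type, 24.0% of tumour cells and 23.0% of adjacent cells. The libraries shared 18 barcodes, of which 0 tumour cells and 1 adjacent cell held a Penk UMI. The fibroblast markers (Col1a1, Col1a2, Col3a1, Dcn, Lum and Pdgfra) marked 230 tumour and 125 adjacent cells, a cell type that the labels do not list.

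The split of Penk UMIs over lineages differed between the 2 libraries. It also depends on the number of cells of each lineage, 234 stromal and 1709 T or NK cells in tumour and 126 and 1809 in adjacent tissue. Stromal cells held 68.2% of the tumour library's Penk UMIs (1809, of which 392 in 1 fibroblast) and 19.0% of the adjacent library's (371). T and NK cells held 2.22% in tumour (59 UMIs) and 31.5% in adjacent tissue (613 UMIs). Cells with both T or NK and myeloid markers, which belong to no type here, held a further 7.32% in tumour (46 of 1454 cells) and 36.4% in adjacent tissue (149 of 1131 cells). Such barcodes may hold more than 1 cell, and which cell gave the Penk UMIs was not tested.

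**Figure D1:**
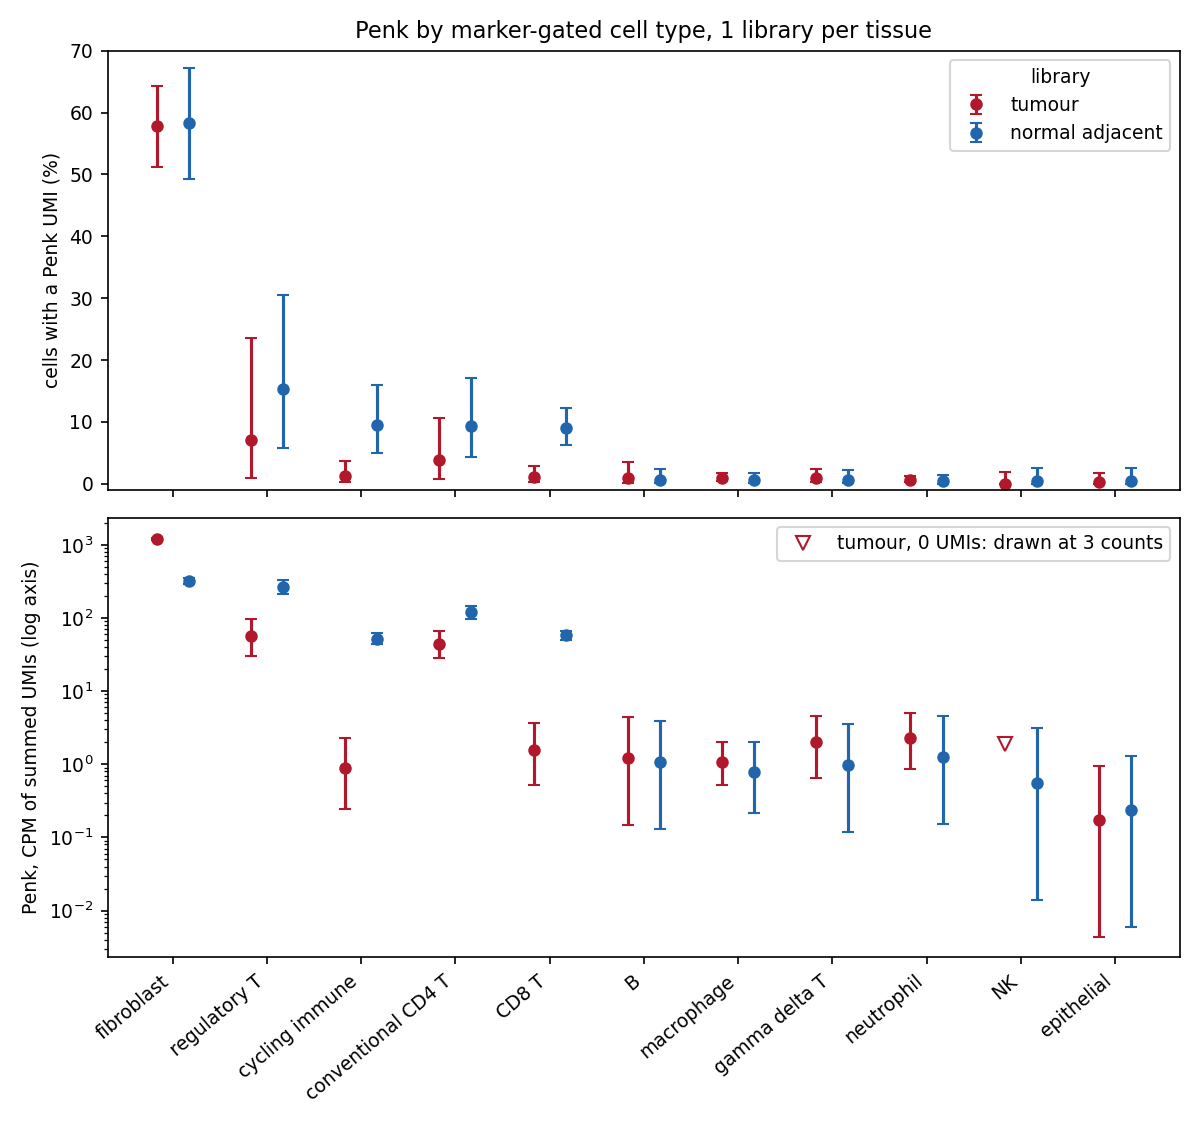
Share of cells with a Penk UMI (upper panel, %, exact binomial 95% intervals) and Penk level (lower panel, CPM, Penk UMIs scaled to the summed UMIs of the type, log axis, exact Poisson 95% intervals) in each marker-gated cell type, with the tumour library in red and the normal adjacent library in blue. Fibroblasts are high in both libraries (57.8% and 58.4% of cells), CD8 T cells are at 1.13% in tumour and 9.0% in adjacent tissue, and the 6 types at the right stay under 1% in both.

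Fibroblasts, the matrix-forming cells of the stroma, had the highest Penk level of the gates with at least 20 cells in both libraries. A Penk UMI was found in 133 of 230 tumour fibroblasts (57.8%, exact Clopper-Pearson 95% interval 51.2 to 64.3) and in 73 of 125 adjacent fibroblasts (58.4%, 49.2 to 67.1). The difference of these shares was -0.574 percentage points (Newcombe 95% interval -11.1 to 10.2). The level, in CPM (UMIs of Penk scaled to the summed UMIs of the cells), was 1201 CPM in tumour (exact Poisson interval 1146 to 1257; 1808 UMIs) and 319 CPM in adjacent tissue (287 to 353; 371 UMIs). These intervals, here and throughout, cover the counting of UMIs or cells only, not the spread between cells, animals or libraries.

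With all UMIs counted, the shares were alike while the levels were not, and positive tumour fibroblasts held more Penk UMIs per cell. The tumour over adjacent ratio of the CPM was 3.76 (exact conditional binomial interval 3.36 to 4.22), or 1.91 on the log2 scale. One tumour fibroblast held 392 Penk UMIs, 21.7% of the total, and the next 4 held 178, 72, 65 and 64. In adjacent tissue the highest cell held 33, or 8.89%. Without the highest cell of each library the ratio was 3.22. Of the positive fibroblasts, 38 in tumour and 11 in adjacent tissue held 10 or more Penk UMIs, with a median of 4 and 2.

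Depth differed between these fibroblasts, with a median of 4797 UMIs per cell in tumour and 7437 in adjacent tissue. With every cell thinned at random to 1000 UMIs, 68 of 192 tumour fibroblasts (35.4%) and 21 of 116 adjacent fibroblasts (18.1%) kept a Penk UMI, a difference of 17.3 points (7.06 to 26.5). Shallower cells were left out of this count, 38 in tumour and 9 in adjacent tissue. At equal depth the share was thus higher in tumour, which the counts of all UMIs did not show. From the shallowest to the deepest of 4 equal bins of cells, the share in tumour was 24.1%, 49.1%, 78.9% and 79.3%, and in adjacent tissue 22.6%, 45.2%, 87.1% and 78.1%. The level in those bins was 808, 865, 828 and 1457 CPM in tumour, against 614, 345, 513 and 208 CPM in adjacent tissue. Tumour was thus higher in each bin, but the bins are not matched for depth between libraries. Median depth ran from 884.5 UMIs in the shallowest to 13595 in the deepest bin in tumour, and from 1185 to 20623 in adjacent tissue. The shallowest bin held 41 Penk UMIs in tumour and 25 in adjacent tissue.

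**Figure D2:**
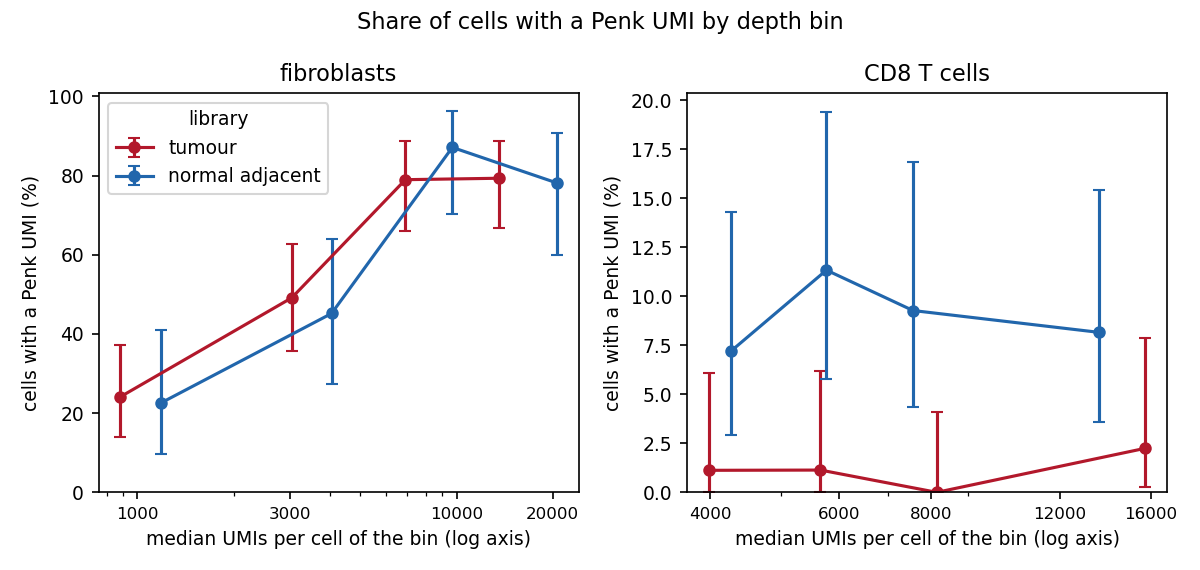
Share of fibroblasts (left) and CD8 T cells (right) with a Penk UMI (%) in 4 equal bins of cells by depth, against the median UMIs per cell of the bin (log axis), with exact binomial 95% intervals. Both libraries' fibroblast shares are lowest in the shallowest bin (24.1% and 22.6%) and high in the deepest (79.3% and 78.1%), while CD8 T cells stay between 7.22% and 11.3% in adjacent tissue and between 0% and 2.25% in tumour at every depth.

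CD8 T cells, the T cells that kill infected or malignant cells, carried Penk in the normal adjacent library far more than in the tumour library. A Penk UMI was found in 4 of 354 tumour CD8 T cells (1.13%, 0.309 to 2.87) and in 35 of 389 adjacent CD8 T cells (9.0%, 6.35 to 12.3), a difference of -7.87 points (-11.2 to -4.86). The 4 tumour cells held 2, 1, 1 and 1 UMIs. The adjacent cells held 36, 18, 17, 16, 15, 13, 9, 9, 8, 6, 6, 5, 5 and 4 UMIs, then 3 in 4 cells, 2 in 4 cells and 1 in 13 cells. In tumour the highest cell held 2 UMIs, while 13 adjacent cells held 5 or more and 6 held 10 or more.

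The level in CD8 T cells was 1.59 CPM in tumour (0.515 to 3.70; 5 UMIs) and 58.0 CPM in adjacent tissue (50.3 to 66.7; 200 UMIs). The adjacent over tumour ratio was 36.6 (15.4 to 114), or -5.19 as the log2 of tumour over adjacent (-6.83 to -3.95). The highest adjacent cell gave 18% of that library's CD8 T total, and without the highest cell of each library the ratio was 49.9, with 3 tumour UMIs left. Median depth was 6445.5 UMIs in tumour and 6675 in adjacent CD8 T cells. Thinned to 1000 UMIs, 1 of 354 tumour cells (0.282%) and 12 of 381 adjacent cells (3.15%) kept a Penk UMI, a difference of -2.87 points (-5.15 to -1.0), with 8 shallower adjacent cells left out.

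The lower tumour value was seen in each way the CD8 T cells were divided. Without cells of the cycling markers, 3 of 305 tumour cells (0.984%) and 28 of 359 adjacent cells (7.80%) held a Penk UMI, at 1.31 and 57.0 CPM. Among tumour CD8 T cells with a UMI of Prss2 or Trav4-4-dv10, listed here as clone markers from earlier results of these data, 1 of 120 was Penk-positive, and among those without, 3 of 234. In the adjacent library a single CD8 T cell had such a UMI, and it was Penk-positive. The CD8 T cells that also met another lineage's markers were much deeper, with medians of 19133 UMIs in tumour and 22991 in adjacent tissue. Of these, 19 of 531 in tumour (3.58%) and 62 of 433 in adjacent tissue (14.3%) held a Penk UMI, at 8.57 and 21.1 CPM, an adjacent over tumour ratio of 2.47 (1.97 to 3.10).

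Regulatory T cells, the Foxp3-expressing T cells that restrain immune responses, were few but held Penk at higher levels than CD8 T cells in both libraries. In tumour 2 of 28 were positive (7.14%, 0.877 to 23.5), with 12 and 1 UMIs, and in adjacent tissue 6 of 39 (15.4%, 5.86 to 30.5), with 37, 14, 12, 9, 8 and 2 UMIs. The difference of shares was -8.24 points (-23.5 to 9.27), an interval that spans 0. The level was 56.9 CPM in tumour (30.3 to 97.3) and 268 CPM in adjacent tissue (214 to 333), an adjacent over tumour ratio of 4.72 (2.61 to 9.24). A single cell carried 12 of the 13 tumour UMIs, and without the highest cell of each library the ratio was 35.2. That ratio sets 45 adjacent UMIs against 1 tumour UMI, so its size is not read.

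Conventional CD4 T cells, the helper T cells without Foxp3, lay between regulatory T and CD8 T cells. In tumour their place below regulatory T cells in level rested on 1 cell. Without the highest cell of each type, tumour levels were 19.7 CPM in conventional CD4 T and 4.52 CPM in regulatory T cells. The adjacent order was kept, at 76.7 and 159 CPM. In tumour 3 of 79 were positive (3.8%), with 13, 9 and 1 UMIs, and in adjacent tissue 9 of 96 (9.38%), with 34, 24, 14, 6, 4, 3, 3, 2 and 1 UMIs. The shares differed by -5.58 points (-13.5 to 2.49), again spanning 0. Levels were 44.5 CPM in tumour (28.2 to 66.8) and 120 CPM in adjacent tissue (96.8 to 148), an adjacent over tumour ratio of 2.70 (1.69 to 4.47). Over all gated T cells, 24 of 1521 in tumour (1.58%) and 76 of 1589 in adjacent tissue (4.78%) held Penk, at 5.33 and 49.2 CPM, a ratio of 9.23 (7.06 to 12.3). T cells outside the 4 subset gates were positive in 11 of 634 cases in tumour (1.74%) and 24 of 747 in adjacent tissue (3.21%).

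**Figure D3:**
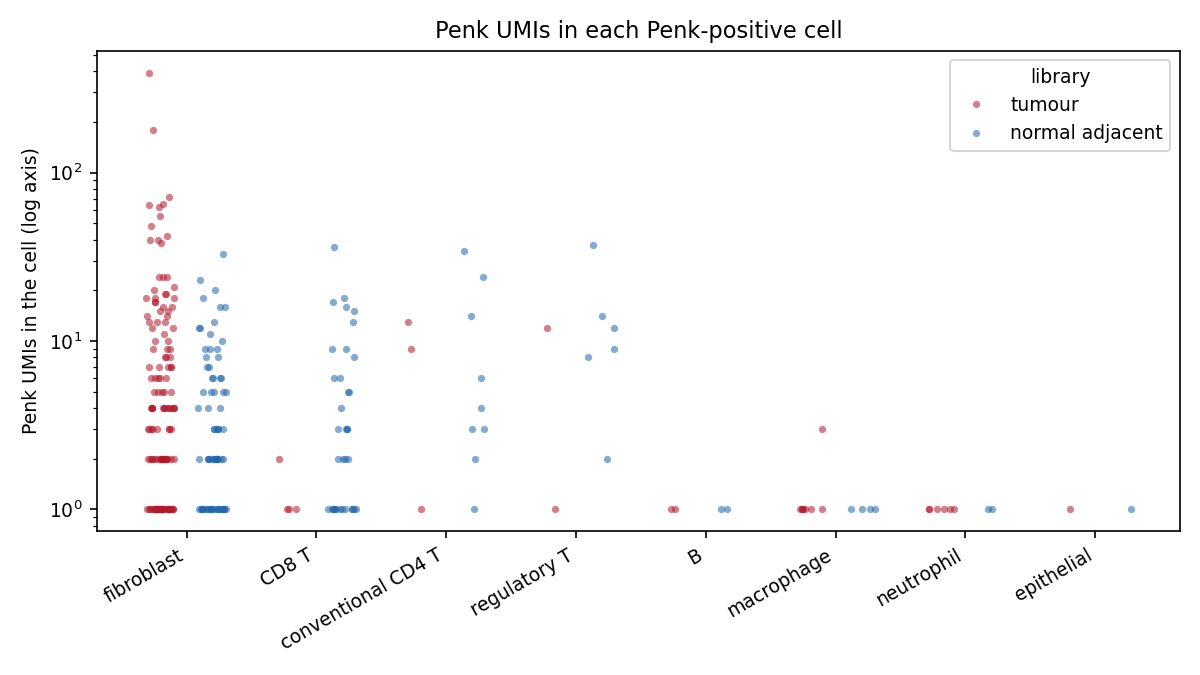
Penk UMIs in each Penk-positive cell (log axis) by gated cell type, with the tumour library in red and the normal adjacent library in blue. Tumour fibroblasts reach 392 UMIs and adjacent fibroblasts 33, tumour CD8 T cells hold at most 2 and adjacent CD8 T cells up to 36, and no B cell, macrophage, neutrophil or epithelial cell holds more than 3.

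Cycling immune cells, gated on proliferation genes, were Penk-positive in 3 of 235 cases in tumour (1.28%; 2, 1 and 1 UMIs) and 12 of 127 in adjacent tissue (9.45%, 4.98 to 15.9). The adjacent cells held 74, 15, 15, 9, 6, 6, 4, 3, 2, 1, 1 and 1 UMIs, so 1 cell gave 54.0% of the 137. Levels were 0.899 CPM in tumour and 52.0 CPM in adjacent tissue, which became 24.0 CPM without that cell. The positive cycling cells were nearly all T cells. Cycling CD8 T cells were positive in 1 of 49 cases in tumour and 7 of 30 in adjacent tissue (23.3%, 9.93 to 42.3), cycling T cells of other gates in 2 of 38 and 4 of 35 (11.4%), and cycling immune cells outside the T gate in 0 of 148 and 1 of 62. Read as 3 counts of the total, 0 of 148 allows up to 2.03% of cells with a Penk UMI, and the exact binomial interval reaches 2.46%. These cells were deep, with medians of 18409 UMIs in tumour and 18248 in adjacent tissue, and at 1000 UMIs per cell the difference of shares was -1.57 points (-5.56 to 0.403), which spans 0. Of adjacent CD8 T cells at that depth, 1 of 30 cycling cells (3.33%) and 11 of 351 other cells (3.13%) kept a Penk UMI.

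B cells, macrophages, neutrophils and epithelial cells were taken as background types, in which free RNA can give a cell a Penk UMI. B cells were positive in 2 of 201 cases in tumour (0.995%) and 2 of 298 in adjacent tissue (0.671%), at median depths of 4616 and 4852.5 UMIs. Macrophages were positive in 8 of 898 (0.891%) and 4 of 592 (0.676%), at 8791.5 and 6935.5 UMIs. Neutrophils were positive in 6 of 993 (0.604%) and 2 of 516 (0.388%), at 2229 and 2780.5 UMIs. Epithelial cells were positive in 1 of 303 (0.330%) and 1 of 214 (0.467%), at 13749 and 12190.5 UMIs. Adjacent CD8 T cells, at 9.0%, were thus above each of these, while tumour CD8 T cells, at 1.13% (0.309 to 2.87), lay within counting error of them, so no Penk above the level of these types was detectable there at this depth. The source of their 5 UMIs was not tested.

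Other lymphocytes were near that background too. Gamma delta T cells were positive in 4 of 426 cases in tumour (0.939%) and 2 of 318 in adjacent tissue (0.629%), and NK cells in 0 of 188 and 1 of 220 (0.455%). Read as 3 counts of the total, 0 of 188 allows up to 1.60% of cells with a Penk UMI, and the exact binomial interval reaches 1.94%. Ordered by level, the tumour library gave fibroblasts, then regulatory T cells at 56.9 CPM and conventional CD4 T cells at 44.5 CPM, which did not differ beyond their intervals, then the other types of at least 20 cells at 2.31 CPM or less. The smooth muscle and endothelial gates held 1 Penk UMI each in 4 tumour cells each (154 and 101 CPM), with intervals of 3.91 to 860 and 2.57 to 565 CPM, and none in their 1 and 3 adjacent cells. In adjacent tissue fibroblasts at 319 CPM and regulatory T cells at 268 CPM overlapped in their intervals, conventional CD4 T cells followed at 120 CPM, and CD8 T cells at 58.0 CPM overlapped with cycling immune cells at 52.0 CPM, some of which are CD8 T cells. The other types of at least 20 cells were at 1.26 CPM or less.

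Markers of other lineages were read in the Penk-positive CD8 T cells of adjacent tissue, since fibroblast RNA would carry Penk as well. Cells above the marker thresholds of another lineage had already been left out of the CD8 T gate. Low counts of these markers were thus partly set by the gate, and where the Penk UMIs came from was not tested. The 6 fibroblast markers were all at 0 UMIs in the 35 Penk-positive cells, against 28 UMIs, or 8.93 CPM, in the 354 Penk-negative cells. In adjacent fibroblasts the same markers summed to 23818 CPM, with 1.34 Penk UMIs per 100 marker UMIs. The 4 B cell markers were also at 0 in the positive cells. Myeloid markers summed to 381 CPM in Penk-positive and 462 CPM in Penk-negative cells, with a UMI in 82.9% and 85.6% of cells, and neutrophil markers to 80.8 and 125 CPM. Epithelial markers were at 120 CPM in Penk-positive and 83.5 CPM in Penk-negative cells, and T cell markers at 6994 and 6362 CPM. In the 4 tumour CD8 T cells with Penk, the fibroblast markers gave 1 UMI.

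The other genes of the Penk-positive CD8 T cells were compared with those of Penk-negative CD8 T cells within the adjacent library, since the tumour library had 4 positive cells. Penk status was called on all UMIs of a cell, before thinning. Cells were thinned to 2000 UMIs, which kept 34 positive and 334 negative cells. Median depth before thinning was 6294 UMIs in positive and 6692.5 in negative cells. Of 3378 genes with at least 30 UMIs, 15.2% were at least 1.5-fold higher and 20% at least 1.5-fold lower in positive cells, which is the background for the counts of each gene list. Cells within 1 library are not replicates, so no test was made, and the intervals on the ratios below treat UMIs as independent and leave out the spread between cells.

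Proliferation genes were higher in the Penk-positive CD8 T cells. Of 5 cell cycle genes measured, 4 were at least 1.5-fold higher and 0 were that much lower, with a median log2 ratio of 0.93 against -0.03 over all genes. Mki67, a marker of dividing cells, had 176 CPM in positive and 31.4 CPM in negative cells, a ratio of 5.61 (2.52 to 11.9), with a UMI in 4 of 34 and 15 of 334 cells. Of its 12 UMIs in positive cells 6 came from 1 cell, and its ratio was 1.06 when the macrophage gate was not counted to the myeloid lineage, a setting that also thins the cells anew. Stmn1, which destabilises microtubules, stood at 441 and 147 CPM (ratio 3.01, 1.93 to 4.57), and the chromatin protein gene Hmgb2 at 1265 and 680 CPM (1.86, 1.46 to 2.35). Top2a, a topoisomerase of dividing cells, had a ratio of 1.07. Smc2, a condensin subunit, Tubb5, a beta tubulin, and Rrm1, a subunit of ribonucleotide reductase, were among the genes outside the lists with the largest differences, at 5.55, 2.60 and 3.73. The cycling gate held 7 of 35 positive cells (20%) and 23 of 354 negative cells (6.5%). With cycling cells left out, 0 of the 3 measured cell cycle genes were at least 1.5-fold higher, and Tubb5 was lower, at -0.64 on the log2 scale.

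Of 8 T cell receptor genes measured, 1 was at least 1.5-fold higher and 0 that much lower. That gene, Trbc1, one of the pair of constant genes of the receptor beta chain, stood at 1824 CPM in positive and 856 CPM in negative cells (ratio 2.13, 1.74 to 2.59), with a UMI in 67.6% and 44.0% of cells. Its partner Trbc2 was at 1662 and 1771 CPM (0.938, 0.767 to 1.14). Cd3g, a signalling chain of the receptor complex, had a ratio of 0.822 (0.678 to 0.989), with an interval off 1 in 4 of the 7 alternative settings. With cells of 2 lineages kept, no receptor gene passed 1.5-fold. V segments were too sparse to read clones from: any Trav segment was seen in 1 of 35 positive and 33 of 354 negative cells, and any Trbv segment in 5 of 35 and 66 of 354.

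Receptors and regulators of T cell activation went both ways. Eomes, a T-box factor of effector and memory CD8 T cells, was seen in 14 of 34 positive cells (41.2%) and 36 of 334 negative cells (10.8%), a ratio of CPM of 3.27 (1.70 to 5.99). Sh2d1a, the SLAM adaptor SAP, had a ratio of 3.57 (1.68 to 7.10), and Rgs16, a regulator of G protein signalling, 2.16 (1.61 to 2.84; 926 and 430 CPM). Of 9 costimulation and cytokine receptor genes, 3 were at least 1.5-fold higher and 1 was that much lower: Tnfrsf4, which encodes OX40, at a ratio of 2.30 (1.32 to 3.83), Cd27, a costimulatory receptor, at 1.69 (1.02 to 2.67) and the interleukin 21 receptor Il21r at 1.53 (1.06 to 2.16) were higher. Of 9 inhibitory genes, 3 were higher and 2 lower by that fold. Tox, a factor of exhausted T cells, had a ratio of 1.78 (1.03 to 2.92), while those of Ctla4 (1.52, 0.932 to 2.36), Lag3 (1.43, 0.804 to 2.38) and Pdcd1, which encodes PD-1 (0.886, 0.431 to 1.64), had intervals that include 1. Over the 7 alternative settings the interval lay off 1 in 6 for Sh2d1a and Cd27, in 5 for Eomes, Tnfrsf4 and Tox and in 4 for Il21r, and with cells of 2 lineages kept 0 costimulation genes were at least 1.5-fold higher.

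Cytotoxic genes went both ways. Gzmk, granzyme K, had a UMI in 55.9% of positive and 26.6% of negative cells (ratio 1.75, 1.10 to 2.70), Fasl, a death ligand, had a ratio of 1.89 (1.18 to 2.91), and the chemokine gene Ccl5 stood at 15088 and 11600.3 CPM (1.30, 1.22 to 1.39). Granzymes A to C were lower in positive cells. Gzma was at 1000 CPM in positive and 2004 CPM in negative cells (ratio 0.499, 0.385 to 0.637), Gzmb at 588 and 1310 CPM (0.449, 0.319 to 0.617) and Gzmc at 588 and 1418 CPM (0.415, 0.295 to 0.569), where 26 of its 40 UMIs in positive cells came from 1 cell. The shares of cells with a UMI differed less, at 23.5% of positive and 27.2% of negative cells for Gzma and 47.1% and 52.1% for Gzmb. The chemokine genes Ccl3 and Ccl4 had ratios of 0.478 (0.189 to 1.01) and 0.767 (0.570 to 1.01). Of 12 cytotoxic genes measured, 2 were at least 1.5-fold higher and 4 at least 1.5-fold lower. Over all genes 15.2% and 20% passed these folds, so the higher count was near the background share. The 2 higher calls, Gzmk and Fasl, were lost in a second random draw of the same thinning (0 higher and 6 lower) and with cells of 2 lineages kept (0 and 4 of 13), and their intervals lay off 1 in 4 and 3 of the 7 alternative settings.

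Of 10 residency genes, which mark T cells that stay in tissue, 2 were at least 1.5-fold higher and 3 that much lower. This count moved with the setting, to 0 and 6 of 10 with the macrophage gate not counted to the myeloid lineage, 0 and 3 of 10 with cycling cells left out, and 1 and 6 of 12 with both libraries summed. Cxcr6, a chemokine receptor of resident T cells, was seen in 85.3% of positive and 58.4% of negative cells (ratio 1.56, 1.20 to 2.02). Xcl1, a chemokine for cross-presenting dendritic cells, was at 485 CPM in positive and 1266 CPM in negative cells (0.383, 0.262 to 0.542), and Cd69, which holds T cells in tissue, at 250 and 421 CPM (0.594, 0.341 to 0.969). Itgae, the alpha E integrin that binds epithelium, had a ratio of 0.719 with an interval of 0.256 to 1.63. Of 15 activation transcription factor genes, 1 was at least 1.5-fold higher and 6 that much lower, among them Nfkbia, the NF-kappa B inhibitor, at 0.460 (0.226 to 0.838). The lower count was 1 of 17 with all UMIs, 1 of 16 with cells of 2 lineages kept, 2 of 15 with at least 2 Penk UMIs required and 3 of 15 in a second draw, so no direction is read from this list.

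Several innate-like receptor genes were lower in Penk-positive CD8 T cells, with 5 of 9 at least 1.5-fold lower and 1 that much higher, and a median log2 ratio of -0.61, genes with 0 UMIs in positive cells being set at a bound of 3 counts. Klrk1, which encodes NKG2D, had 0 UMIs in the 34 positive cells and 72 UMIs in 49 of the 334 negative cells. Klrd1, which encodes CD94, had a ratio of 0.351 (0.150 to 0.703) and its partner Klrc2 0.147 (0.00366 to 0.845). These 2 calls depend on the setting, since the interval lay off 1 in 1 of the 7 alternatives for Klrd1 and in 0 of 7 for Klrc2, and with all UMIs the ratios were 0.864 and 0.766. The signalling adaptors Fcer1g and Tyrobp were at 0.655 (0.465 to 0.899) and 0.586 (0.337 to 0.955), and neither was lower when cells of 2 lineages were kept. Among genes outside the lists, the interferon-induced chemokine gene Cxcl10 had 0 UMIs in positive cells and 110 UMIs in 41 of the negative cells, and the neutrophil attractant gene Cxcl2 a ratio of 0.368 (0.146 to 0.773). As given above, most CD8 T cells of both sets held myeloid marker UMIs, at a lower level in the Penk-positive ones. Whether free RNA of myeloid cells gave UMIs of Fcer1g, Tyrobp, Cxcl10 and Cxcl2 was not tested.

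Of the 24 genes outside the lists that the naming rule gave, 20 kept their direction under all 7 alternative settings, and for 6 the interval stayed off 1 in all 7: Rgs16, higher in Penk-positive cells, and Cxcl10, Cxcl2, Crip1, Plac8 and Tmsb10, lower. Crip1, a small LIM protein gene, had a ratio of 0.558, Plac8 0.386 and Tmsb10, a thymosin that binds actin, 0.679. The list genes Trbc1, Hmgb2 and Ccl5, higher, and Xcl1, Gzma, Gzmb and Gzmc, lower, did so too. The alternative settings largely reuse the cells from which the 24 genes were picked, so they are no independent check. Whether the Cxcl10 and Cxcl2 UMIs came from the CD8 T cells themselves was not tested.

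**Figure D4:**
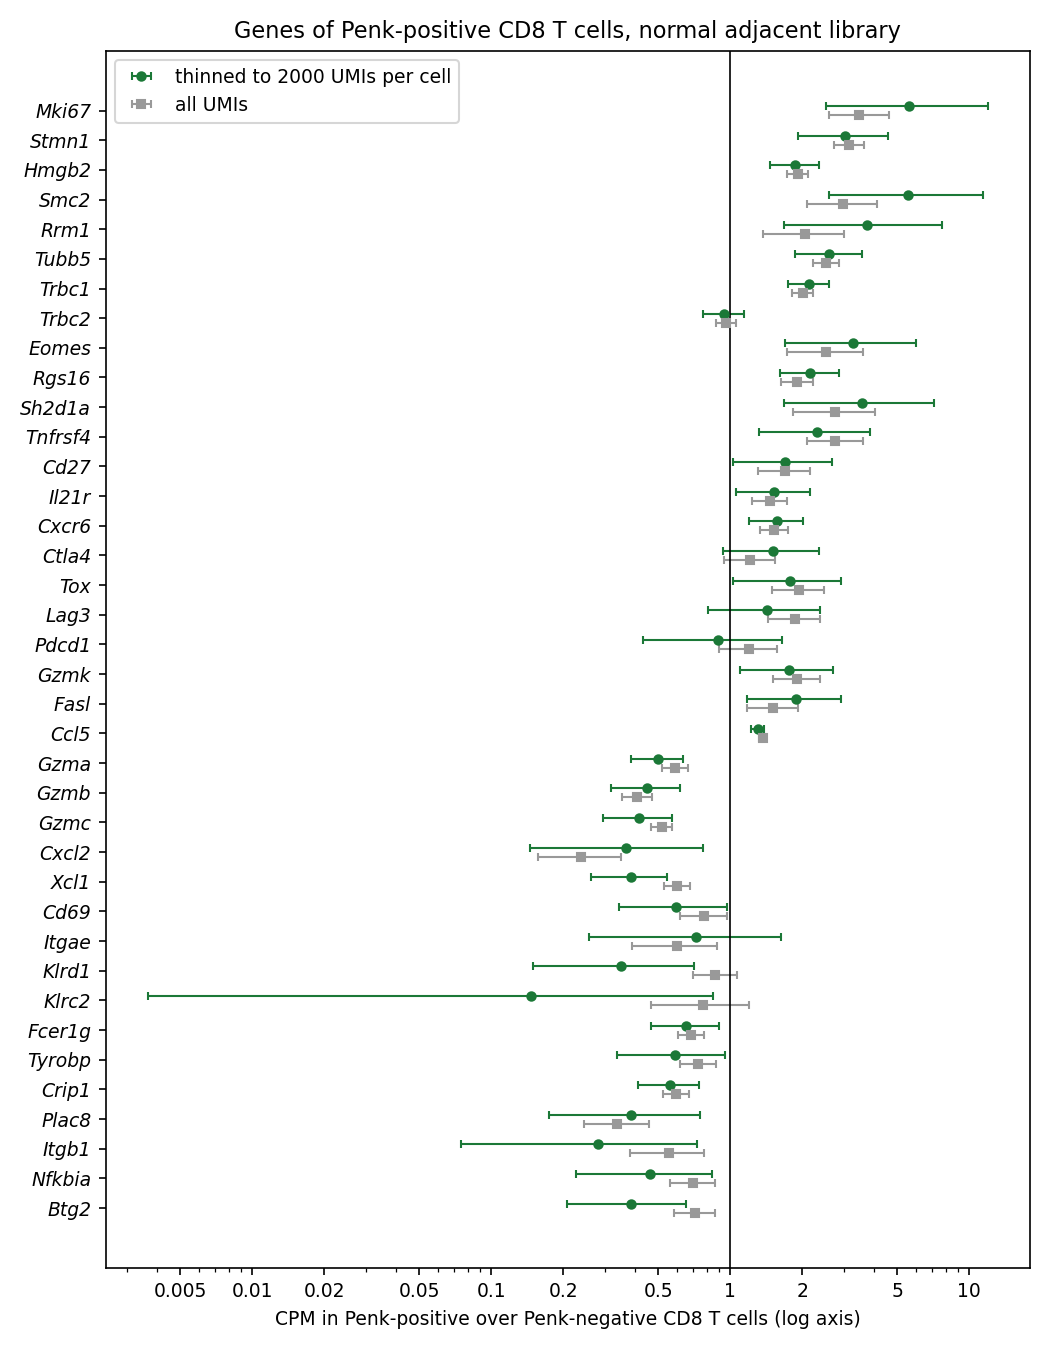
Ratio of CPM in Penk-positive over Penk-negative CD8 T cells of the normal adjacent library (log axis) for named genes, with exact conditional 95% intervals, from cells thinned to 2000 UMIs (green) and from all UMIs (grey); the line marks a ratio of 1. Cell cycle genes, Trbc1, Eomes and Rgs16 lie to the right and granzymes A to C, Xcl1 and the innate-like receptors to the left.

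Penk-positive and Penk-negative fibroblasts were compared in the same way in both libraries, a comparison added after values had been seen. Depth limits it, since median depth was 7198 UMIs in positive and 1557 in negative tumour fibroblasts, and 9707 and 2511 in adjacent ones. Thinning to 2000 UMIs kept 117 positive and 45 negative cells in tumour and 68 and 31 in adjacent tissue. In tumour, 15.7% of 1545 genes were at least 1.5-fold higher and 12.6% that much lower in positive cells. In adjacent tissue these were 17.4% and 13% of 948 genes.

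Among the genes that were higher in Penk-positive fibroblasts of both libraries, Gpx3, a secreted glutathione peroxidase, was at 2667 CPM in positive and 800 CPM in negative tumour fibroblasts (ratio 3.33, 2.61 to 4.32), and at a ratio of 3.77 (2.73 to 5.32) in adjacent tissue. Sfrp1, a Wnt inhibitor, had ratios of 2.98 in tumour and 2.18 in adjacent tissue, and Igfbp4, which binds insulin-like growth factors, 2.21 and 2.0. Hsd11b1, which activates glucocorticoids, had 2.31 and 3.08, and Apod, a lipid-binding lipocalin, 1.90 and 1.73. Tnfaip6, an inflammation-induced matrix protein gene, had 6.28 and 3.19, where 17 of its 49 UMIs in positive tumour and 30 of 49 in positive adjacent fibroblasts came from 1 cell. The monocyte attractant gene Ccl7 had 3.85 and 2.51, where 35 of its 110 UMIs in positive tumour and 13 of 77 in positive adjacent fibroblasts came from 1 cell. Shares of cells with a Ccl7 UMI differed less, at 22.2% of positive and 15.6% of negative tumour fibroblasts and 26.5% and 19.4% in adjacent tissue. Mmp3, a matrix metalloproteinase, had 33 UMIs in positive and 2 in negative tumour fibroblasts, and 30 and 0 in adjacent ones, where 15 of the 30 came from 1 cell.

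Among the genes that were lower in both libraries, Tagln, an actin-binding protein of smooth muscle and myofibroblasts, had ratios of 0.362 (0.264 to 0.497) in tumour and 0.197 (0.147 to 0.262) in adjacent tissue, and Acta2, smooth muscle actin, 0.452 and 0.403. Shares of cells with a Tagln UMI differed less, at 26.5% of positive and 31.1% of negative tumour fibroblasts and 23.5% and 32.3% in adjacent tissue. In negative adjacent fibroblasts, the 164 Tagln UMIs came from 10 cells and the 52 Acta2 UMIs from 9. Dkk2, a Wnt regulator, had 0.256 and 0.377, Igfbp5, which binds insulin-like growth factors, 0.347 and 0.454, and Timp3, a metalloproteinase inhibitor, 0.274 and 0.527. Malat1, a nuclear long noncoding RNA, had 0.360 and 0.475. Its share also moves with cell quality, and its part in the other ratios was not tested.

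**Figure D5:**
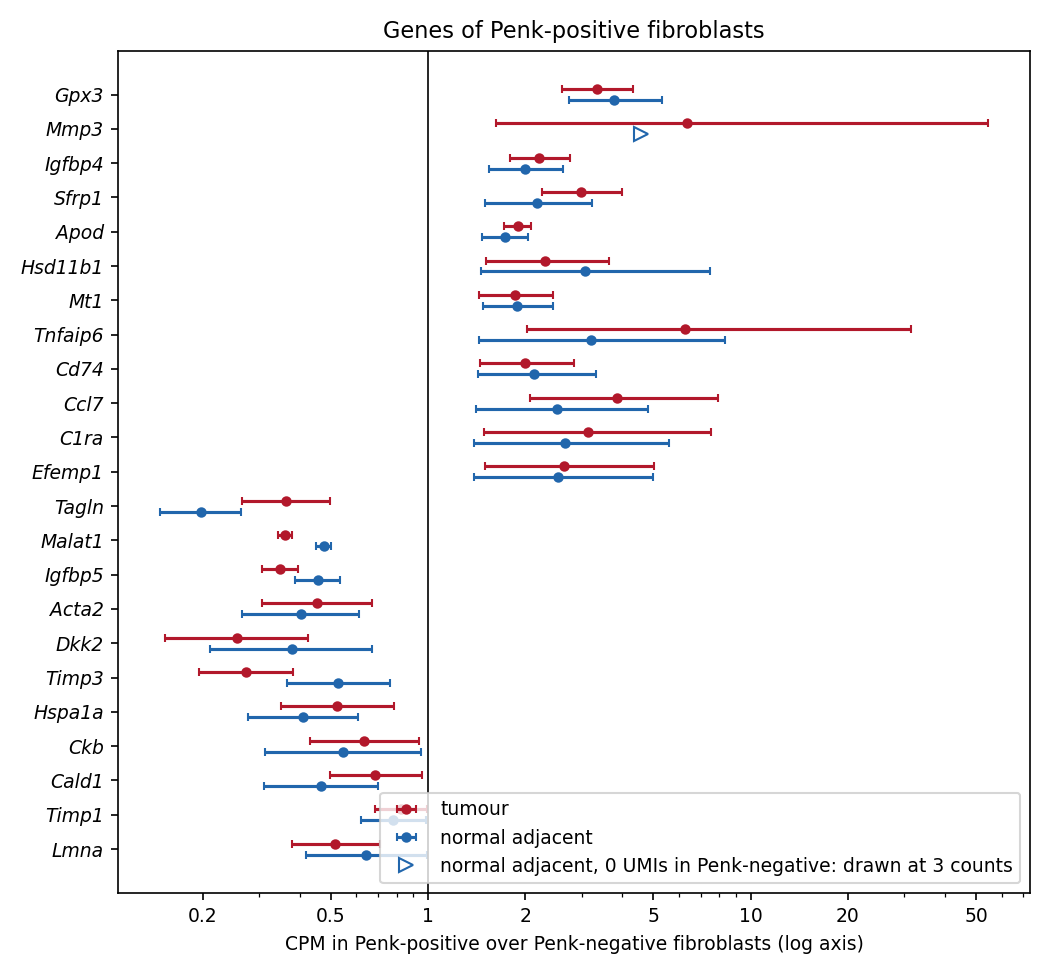
Ratio of CPM in Penk-positive over Penk-negative fibroblasts (log axis) for named genes, thinned to 2000 UMIs per cell, with exact conditional 95% intervals, tumour library in red and normal adjacent library in blue; the line marks a ratio of 1. Gpx3, Sfrp1, Hsd11b1 and Tnfaip6 lie to the right and Tagln, Acta2, Dkk2 and Igfbp5 to the left in both libraries.

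The partners of Penk in opioid signalling were sparse. Oprm1, the mu receptor, had a UMI in 24 of 7768 tumour cells and 24 of 6209 adjacent cells, and Oprd1, the delta receptor and main enkephalin target, in 9 and 10. Oprk1, the kappa receptor, and Pdyn, prodynorphin, had none in either library. Pomc, the precursor of beta-endorphin, had a UMI in 150 tumour and 152 adjacent cells. Ogfr, the nonclassical receptor of Met-enkephalin, was seen in 40.8% of tumour and 40.3% of adjacent cells, and in Penk-positive and Penk-negative adjacent CD8 T cells its ratio was 1.05 (0.371 to 2.44).

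Enzymes that cut or break down proenkephalin were found in part. Furin, a convertase of the constitutive pathway, had a UMI in 49.4% of tumour and 48.8% of adjacent cells, but 2 UMIs in the 34 thinned Penk-positive CD8 T cells and 49 in the 334 negative ones (ratio 0.401, 0.0472 to 1.53). Pcsk1, the convertase of regulated secretion, had 53 UMIs in tumour and 176 in adjacent tissue, and was seen in 2 of 28 regulatory T cells of tumour (7.14%, 8.75 CPM) and 14 of 39 of adjacent tissue (35.9%, 131 CPM). Pcsk2, its neuroendocrine partner, was seen in 1 cell of each library. Cpe, the carboxypeptidase that trims the peptides, had a UMI in 3.28% of tumour and 3.25% of adjacent cells. Ctsl, cathepsin L, which can also process proenkephalin, was at 1339 CPM in tumour and 1300 CPM in adjacent fibroblasts. Mme, the enkephalin-degrading neprilysin, was seen in 36.3% of tumour and 41.1% of adjacent epithelial cells.

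The genes whose level followed that of Penk most closely over the 13 gates of both libraries (26 points) were ranked by Pearson's r of log levels among 11006 genes. The first 5 were Cd200 (0.746), Cox6b2 (0.689), Lrrc32 (0.676), Selenom (0.670) and Aebp1 (0.663). The points share libraries, cells of some gates overlap, and the smooth muscle and endothelial gates hold 1 to 4 cells each. Over the 11 gates with at least 20 cells in both libraries (22 points), the first 5 were Akap12 (0.837), Ids (0.812), Adamts6 (0.794), Ppp1r14a (0.771) and Rab23 (0.769), none of them among the first set, so the ranking depends on the small gates.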

How the data were processed

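Sorted cells of 1 tumour and 1 normal adjacent library were analysed from the deposited matrices of raw UMI counts per gene and barcode, which Cell Ranger 4.0.0 wrote, per the file headers. R 4.0.3, Seurat 3.2.2 and GRCh38, a human build, are named in the submitters' processing notes, while all features are mouse genes; the labels and headers state neither the mouse build nor the cell calling settings. Penk, its lists and its comparisons were chosen with earlier results of these data known.

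Cells were gated on raw UMI counts of marker genes. No doublet caller was run, and cells of 2 lineages were left out. Whether the macrophage gate counts to the myeloid lineage was settled after values were seen, and the other reading is among the alternatives. Shares have exact Clopper-Pearson intervals, levels are CPM of summed UMIs with exact Poisson intervals, and ratios have exact conditional binomial intervals, at a confidence of 0.95. Thinning drew 1000 UMIs per cell for shares and 2000 for genes. In the gene comparisons, Penk-positive cells were called before thinning. With 1 library per tissue no p-value is given.

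The genes named in Penk-positive cells were the 12 outside the lists in each direction whose interval lay farthest from a ratio of 1, plus list genes. In fibroblasts the interval had to lie off 1 in both libraries for a gene to be described. Pattern likeness was Pearson's r over gates for genes of at least 200 UMIs. Coding sequence came from GENCODE and GRCm38. Python 3.11.15, NumPy 2.4.6, SciPy 1.17.1 and pandas 2.3.3 were used. The gene comparison was run on simulated cells drawn without spread between cells. That run cannot show how the intervals hold where the UMIs of a gene come from few cells. Alternatives were 10 for Penk shares or levels and 7 for genes. Among them were other thinning, other gates, cells of 2 lineages kept, and the highest cell left out. Depth bins, the splits of T and cycling cells and the fibroblast comparison were added after values were seen.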

Additional observations from a re-analysis of the deposited data

Results flagged for a closer look

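The Penk difference between the libraries ran opposite ways in 2 cell types. In CD8 T cells the log2 ratio of CPM, tumour over normal adjacent, was -5.19, with 1.59 CPM in tumour and 58.0 CPM in adjacent tissue. In fibroblasts it was 1.91, with 1201 CPM in tumour and 319 CPM in adjacent tissue. Each tissue has 1 library, so the difference between the cell types was not tested.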

How the results depend on the processing

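No paired analysis was possible because each tissue has 1 library. The tumour over adjacent log2 ratio of Penk was computed under all alternatives but the one that requires at least 2 Penk UMIs. Its direction was kept in CD8 T, regulatory T, cycling immune cells and fibroblasts, while its size moved. Where the tumour cells had 0 Penk UMIs, the ratio is only an upper bound at a floor of 3 counts. With cells of 2 lineages kept, it was -2.03 in CD8 T cells, -1.88 in cycling immune cells and 1.28 in fibroblasts, and shares with a Penk UMI were 3.70% and 17.7% in cycling immune cells and 45.4% and 43.2% in fibroblasts of tumour and adjacent tissue. Thinned to 1000 UMIs, shares were 0.282% and 3.15% in CD8 T cells, 0% and 1.57% in cycling immune cells, 35.4% and 18.1% in fibroblasts and 0% in tumour regulatory T cells, with log2 ratios of 1.47 in fibroblasts and, as upper bounds at a floor of 3 counts for the tumour, -1.05 in regulatory T and -1.88 in cycling immune cells. A second draw of that thinning gave 0% and 2.89% in CD8 T cells (bound -2.89), 0% and 2.36% in cycling immune cells (bound -2.30), 33.9% and 22.4% in fibroblasts (1.06) and -0.86 in regulatory T cells. Thinned to 3000 UMIs, tumour CD8 T cells were at 0%, adjacent fibroblasts at 41.4% and the fibroblast log2 ratio at 1.73. With at least 2 Penk UMIs required, shares were 0.282% and 5.66% in CD8 T cells and 43.0% and 40% in fibroblasts. Requiring 1 more marker UMI left 0% of tumour regulatory T cells positive. Without the highest cell of each library the log2 ratio was -5.14 in regulatory T cells, where 1 tumour UMI was left, and 1.69 in fibroblasts. The other reading of the macrophage gate gave 4 of 367 tumour and 37 of 402 adjacent CD8 T cells and a log2 ratio of -5.53. The percentages of genes past 1.5-fold stayed within 1.5 times under every alternative run.

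Among named genes whose interval lay off 1, the log2 ratio of Penk-positive over Penk-negative cells turned round 10 times, beside Mki67, which with cycling cells left out had 0 UMIs in positive and 6 in negative cells. Genes whose interval included 1 turned round as well, Rgs1 and Pdcd1 keeping their direction in 4 of 7 alternatives, Ctla4, Top2a, Trbc2, Ogfr and Tnfrsf9 in 5, and Nr4a2 and Ccr7 in 6. In CD8 T cells, leaving out cycling cells gave Hist1h1b -0.38, Tubb5 -0.64, Itgb1 0.19 and Nfkbia 0.066, keeping cells of 2 lineages gave Fcer1g 0.0095 and Tyrobp 0.18, and the other macrophage reading gave Cmc1 -0.49. In tumour fibroblasts, all UMIs gave C1ra -0.047 and Timp1 0.25, and a second draw gave Timp1 0.086. The cause was not tested. The 5 tumour CD8 T and 13 tumour regulatory T UMIs of Penk, and the 35 positive CD8 T cells, limit every statement on them.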

Other observations

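Cells that met the markers of more than 1 lineage held 749 of the 2652 Penk UMIs in tumour and 923 of 1948 in adjacent tissue. In tumour, 4 of 4 cells with B and stromal markers and 12 of 18 cells with T or NK and stromal markers were Penk-positive, with 154 and 179 UMIs, and in adjacent tissue 5 of 13 of the T or NK and stromal cells were, with 85 UMIs. Cells with no lineage's markers were Penk-positive in 13 of 1016 cases in tumour and 7 of 913 in adjacent tissue.

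Regulatory T cells that also met another lineage's markers were Penk-positive in 6 of 41 cases in tumour (14.6%) and 10 of 45 in adjacent tissue (22.2%), at 23.1 and 56.2 CPM. Conventional CD4 T cells of that kind were positive in 4 of 115 in tumour (3.48%) and 12 of 59 in adjacent tissue (20.3%), at 3.55 and 53.1 CPM. In Penk-positive regulatory T and cycling immune cells of both libraries the fibroblast markers were at 0 UMIs, while in adjacent conventional CD4 T cells 1 of 9 Penk-positive cells held 3. These gates leave out cells above the fibroblast marker thresholds, so such low counts were partly fixed beforehand.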
